A study of Mus musculus with 12 samples.

Results

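The 8 genes described here make, extend and break down liver glycogen or bring protein phosphatase 1 to it. They are Ppp1r3g, Ppp1r3b, Ppp1r3c, Gys2, Ugp2, Gbe1, Gyg and Pygl, and they were picked by gene symbol out of 16035 genes listed in the count table. The choice was made with their levels in HFCF and chow livers already known, so those levels are given as a description. No p-value is printed for a diet comparison of these 8 genes. Where those that passed a threshold for diet are named or counted, this describes the fit and is not evidence for a change. All 8 passed the filter on low counts, among 14725 genes that did.

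Liver RNA of wild-type C57BL/6 mice, a common inbred strain, was sequenced after 1 or 3 months on a diet that the labels call HFCF, a name they do not spell out, or on normal chow. The series concerns experimental nonalcoholic steatohepatitis, a fatty and inflamed liver. There were 3 biological replicates in each of 4 groups, 12 libraries in all: HFCF livers at 1 month, chow livers at 1 month, HFCF livers at 3 months and chow livers at 3 months. All 12 libraries are labelled WT. The livers taken at 1 month came from mice aged 3 months and those taken at 3 months from mice aged 6 months, so the effects of feeding time and age cannot be told apart. By these figures feeding began at an age of 2 months in the 1-month groups and of 3 months in the 3-month groups.

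Glycogen is the branched glucose store of the liver, built after meals and spent between them. Glucose phosphate is turned into UDP-glucose, which glycogen synthase adds to chains begun on glycogenin and branched by the branching enzyme, while glycogen phosphorylase releases glucose phosphate from the chain ends. Phosphorylation switches synthase off and phosphorylase on. Protein phosphatase 1 reverses both when a PPP1R3 subunit holds it on the glycogen particle, and hepatocytes use several such subunits in place of the form that predominates in skeletal muscle.

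The libraries held 13733485 to 20277572 counts, and the 8 genes had 6 to 18784 counts in a library. Levels are given as CPM, counts scaled to library size after correction by the TMM factors of edgeR, which ran from 0.9205 to 1.145. Where FPKM is named, it is the authors' count scaled to uncorrected library size and to the length of the gene model. Levels of 1 gene set between groups can therefore differ between the 2 scales. Mean Gys2 was 276 CPM in HFCF livers at 3 months and 297 CPM in chow livers at 1 month, but 114 and 105 FPKM. Each change is a log2 fold change ± SE, taken from 1 quasi-likelihood fit of edgeR over the 12 libraries, and a change passed at a Benjamini-Hochberg adjusted p under 0.05 over all 14725 genes. Replicate 3 of HFCF at 3 months and replicate 1 of chow at 1 month stood apart from their groups on the principal components of log2 CPM. The first lay at 29.3 on the first component against 60.7 and 63.8 for its group, and the second at 36.8 on the second component against 0.00513 and 6.44.

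In mm10 coordinates, Ppp1r3g (ENSMUSG00000050423) lies on the plus strand at chr13:35958839-35970388, Ppp1r3b (ENSMUSG00000046794) on the plus strand at chr8:35375741-35388124 and Ppp1r3c (ENSMUSG00000067279) on the minus strand at chr19:36731737-36736653. The enzymes Gys2 (ENSMUSG00000030244) at chr6:142422613-142473109, Pygl (ENSMUSG00000021069) at chr12:70190811-70231488 and Ugp2 (ENSMUSG00000001891) at chr11:21321138-21371201 lie on minus strands. Gbe1 (ENSMUSG00000022707) lies on the plus strand at chr16:70313949-70569716. The counted model of Gyg (ENSMUSG00000019528), on the minus strand at chr3:20122556-20123543, spans 988 of the 33234 genomic bases that GENCODE M21 gives the gene, near its 3′ end. It holds 731 bases, against 2344 exon bases in GENCODE M21, so values of Gyg cover a part of its transcript. Exons of Ugp2 overlap those of the opposite-strand transcript Gm12043, and the strand counted is not given in the sources used here.

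Promoter sequence, from RefSeq on GRCm38.p6, was matched for 6 of the 8 genes, as 7 windows of 250 bases before a transcription start, with none for Ppp1r3b and Gys2. The windows of Ppp1r3g and Ppp1r3c are shown because the transcripts of these subunits stood on opposite sides of chow at 1 month, and that of Pygl because it holds the same motif as that of Ppp1r3g. Each runs 5′ to 3′ and ends at the base before the start, with motif matches in capitals, either the core of the cAMP response element (TGACG, or CGTCA when it lies on the other strand) or the E-box (CACGTG).
Ppp1r3g, plus strand, chr13:35967656-35967905: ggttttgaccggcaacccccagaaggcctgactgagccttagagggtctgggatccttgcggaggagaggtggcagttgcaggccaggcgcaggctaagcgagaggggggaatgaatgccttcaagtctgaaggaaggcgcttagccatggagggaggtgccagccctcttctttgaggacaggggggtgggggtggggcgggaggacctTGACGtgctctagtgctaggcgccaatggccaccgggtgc
Ppp1r3c, minus strand, chr19:36736605-36736854: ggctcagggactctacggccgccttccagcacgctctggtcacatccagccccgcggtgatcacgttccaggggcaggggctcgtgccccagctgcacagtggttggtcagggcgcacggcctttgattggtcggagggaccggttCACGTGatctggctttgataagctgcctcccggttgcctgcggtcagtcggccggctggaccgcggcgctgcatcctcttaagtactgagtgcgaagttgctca
Pygl, minus strand, chr12:70227684-70227933: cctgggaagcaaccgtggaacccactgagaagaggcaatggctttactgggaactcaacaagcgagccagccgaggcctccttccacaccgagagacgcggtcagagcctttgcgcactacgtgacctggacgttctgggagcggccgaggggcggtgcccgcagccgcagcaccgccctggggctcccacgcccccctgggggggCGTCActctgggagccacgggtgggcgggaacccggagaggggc

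The TGACG core was found at -40 to -36 of Ppp1r3g and, on the other strand, at -44 to -40 of Pygl, which made 2 of the 7 windows, against 17.8% of 32851 such windows over the genome. An E-box lay at -104 to -99 of Ppp1r3c, in 1 of 7 windows against 6.02%. The forkhead motif GTAAACA lay in 0 of 7 windows against 3.17%. Both strands were searched, the 3 motifs do not overlap in these windows, and a match is a description of the letters. For each of the 3 windows shown, the start used by RefSeq lies inside the span of the counted gene. These starts are 35967906 for Ppp1r3g, 36736604 for Ppp1r3c and 70227683 for Pygl. The 3 windows shown were 63.2% G and C for Ppp1r3g, 64.4% for Ppp1r3c and 69.2% for Pygl, against a median of 52.4% over all windows.

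Among the targeting subunits, Ppp1r3g had the widest range of the 8 genes on a log scale, between its lowest and its highest library. Its product targets the phosphatase to glycogen in the liver, and in mice its transcript changes with the cycle of fasting and feeding. In HFCF livers at 1 month Ppp1r3g had 48.5, 144 and 92.2 CPM, against 0.377, 1.76 and 2.05 CPM in chow livers. HFCF livers at 3 months had 39.1, 25.2 and 11.2 CPM, against 5.98, 0.654 and 2.85 CPM in chow livers. The HFCF and chow libraries did not overlap at either month, and the lowest HFCF library at 1 month lay above the highest at 3 months. HFCF livers had 867 to 2161 counts of this gene at 1 month against 6 to 30 in chow livers, and 163 to 836 at 3 months against 10 to 111, so the chow levels rest on few reads.

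Means of Ppp1r3g were 95.0 ± 48.0 CPM in HFCF livers and 1.40 ± 0.896 CPM in chow livers at 1 month (SD, n = 3 each), a change of 6.09 ± 0.87 (SE) or 68.2-fold. At 3 months they were 25.2 ± 13.9 CPM in HFCF livers and 3.16 ± 2.68 CPM in chow livers, a change of 2.96 ± 0.76 or 7.76-fold. The change at 3 months was 3.89 without chow replicate 1 and 2.47 without chow replicate 2, and that at 1 month was 5.64 without chow replicate 1. In the authors' deposited table the log2 ratios of Ppp1r3g, which run chow over HFCF, were -1.93 at 1 month and -0.82 at 3 months. They had the same direction but were far smaller in size than 6.09 and 2.96, so the size of the change depended on how it was computed. For Gys2 at 1 month the authors' ratio was -1.38, against a change of 1.52 here. What made the values of Ppp1r3g differ was not tested.

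Ppp1r3b encodes the subunit named GL, known as the main liver form. Its transcript was lower in HFCF livers, with 53.6, 108 and 53.8 CPM at 1 month against 228, 165 and 226 CPM in chow livers. At 3 months it had 105, 86.5 and 62.9 CPM in HFCF livers, against 90.1, 161 and 211 CPM in chow livers. The groups stood apart at 1 month and overlapped at 3 months, where chow replicate 1 had the lowest chow value. The change was -1.52 ± 0.37 at 1 month and -0.86 ± 0.36 at 3 months, the second being -1.13 without chow replicate 1 and -0.57 without chow replicate 3.

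Ppp1r3c encodes the subunit called protein targeting to glycogen, which also binds glycogen synthase and phosphorylase. In HFCF livers at 1 month it had 25.2, 19.8 and 9.28 CPM, against 83.8, 39.3 and 67.7 CPM in chow livers, with no overlap and a change of -1.81 ± 0.44. At 3 months the values were 30.0, 28.3 and 56.8 CPM in HFCF livers, against 29.5, 40.8 and 47.1 CPM in chow livers. These groups overlapped, and the highest value of the 6 libraries came from HFCF replicate 3, which stood apart on the principal components. The change at 3 months was -0.03 ± 0.42, and with each library left out it ran from -0.42 without HFCF replicate 3 to 0.15 without HFCF replicate 2, so its sign depended on the libraries kept. It was 0.12 without HFCF replicate 1 or chow replicate 3.

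**Figure D1:**
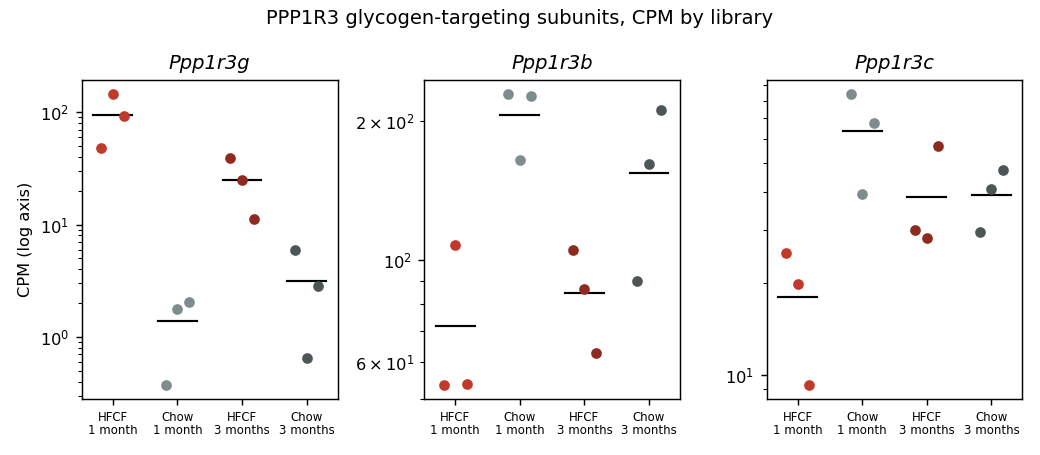
CPM of Ppp1r3g, Ppp1r3b and Ppp1r3c in each library on logarithmic axes, by diet and month, with a line at each group mean (n = 3 per group). Ppp1r3g lay above chow in every HFCF library at both months, at 48.5 CPM or more at 1 month, while Ppp1r3b and Ppp1r3c lay below chow in every HFCF library at 1 month.

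Compared per length, the mix of the 3 subunit transcripts differed by diet. Ppp1r3g made up 46.7%, 63.5% and 69.3% of their summed FPKM in HFCF livers at 1 month, against 0.176%, 1.29% and 1.03% in chow livers. At 3 months its share was 30.2%, 24.4% and 11.1% in HFCF livers, against 6.85%, 0.485% and 1.65% in chow livers. Every HFCF library thus held a higher share than every chow library of its month. The share of Ppp1r3b averaged 27.9% ± 3.37 in HFCF livers and 67.8% ± 4.24 in chow livers at 1 month, and 45.2% ± 7.09 in HFCF livers and 68.8% ± 6.10 in chow livers at 3 months (SD, n = 3 each).

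The share of Ppp1r3c averaged 12.3% ± 8.79 in HFCF livers and 31.4% ± 4.80 in chow livers at 1 month, and 32.9% ± 16.5 in HFCF livers and 28.2% ± 3.05 in chow livers at 3 months, with 51.8% in HFCF replicate 3. The summed FPKM of the 3 transcripts was 58.9 ± 24.6 in HFCF livers and 68.4 ± 14.3 in chow livers at 1 month, and 48.9 ± 8.94 in HFCF livers and 52.2 ± 15.5 in chow livers at 3 months. These sums differed by less than the spread between replicates. Transcript shares are not shares of protein, which was not measured here.

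**Figure D2:**
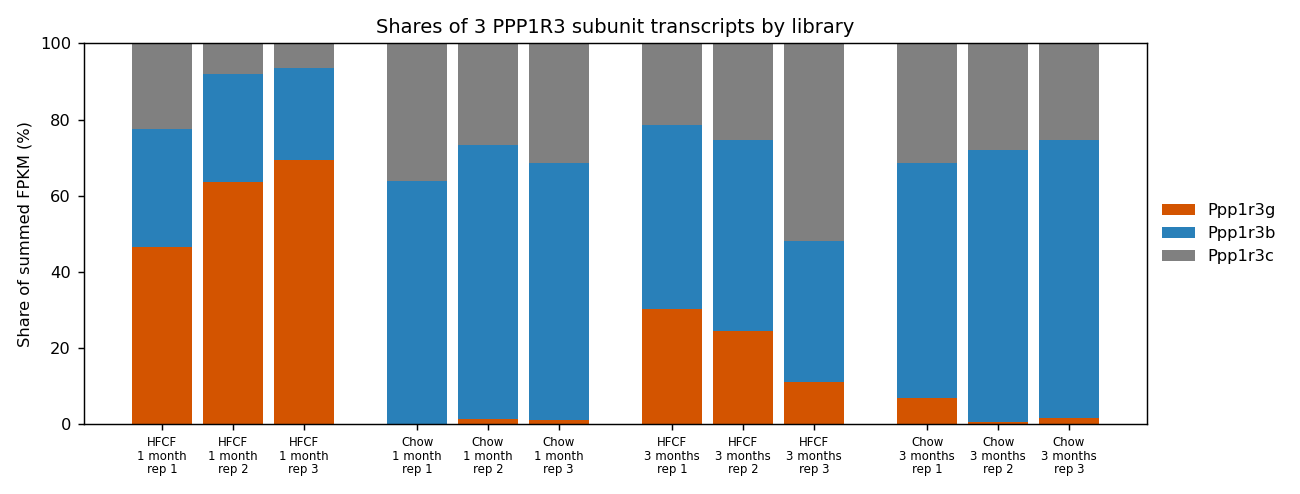
Share of the summed FPKM of Ppp1r3g, Ppp1r3b and Ppp1r3c that each transcript held, in percent, with 1 bar per library. Ppp1r3g held 46.7% to 69.3% in HFCF livers at 1 month and 0.176% to 1.29% in chow livers, and 11.1% to 30.2% in HFCF livers at 3 months against 0.485% to 6.85% in chow livers.

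Of the enzymes, Gys2, the glycogen synthase of liver, stood out at 1 month. It had 1050.4, 564 and 945 CPM in HFCF livers, against 276, 360.0 and 257 CPM in chow livers. Every HFCF library lay above every chow library, with means of 853 ± 256 CPM in HFCF livers and 297 ± 55.0 CPM in chow livers (SD, n = 3 each), a change of 1.52 ± 0.21 or 2.87-fold. At 3 months Gys2 had 255, 252 and 322 CPM in HFCF livers, against 293, 259 and 246 CPM in chow livers. There the groups overlapped and the change was 0.06 ± 0.20.

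Ugp2, which makes the UDP-glucose that synthase uses, was higher in HFCF livers at both months. It had 487, 573 and 437 CPM in HFCF livers at 1 month against 282, 429 and 365 CPM in chow livers, and 531, 610.3 and 824 CPM in HFCF livers at 3 months against 463, 408 and 318 CPM in chow livers. The groups did not overlap at either month, with 437 CPM in the lowest HFCF library and 429 CPM in the highest chow library at 1 month. The changes were 0.48 ± 0.20 at 1 month and 0.72 ± 0.20 at 3 months, the second 0.52 without HFCF replicate 3.

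Gbe1, the branching enzyme, had 66.7, 107 and 70.8 CPM in HFCF livers at 1 month, against 70.0, 94.9 and 102 CPM in chow livers. At 3 months it had 187, 187 and 137 CPM in HFCF livers, against 93.1, 97.1 and 106 CPM in chow livers. The groups overlapped at 1 month, with a change of -0.13 ± 0.19, and stood apart at 3 months, with a change of 0.79 ± 0.19. Gyg, for glycogenin, the protein primer of a glycogen chain, had 1.54 to 1.68 CPM in HFCF livers and 1.26 to 2.05 CPM in chow livers at 1 month, and 1.10 to 2.36 CPM in HFCF livers and 0.981 to 1.27 CPM in chow livers at 3 months. These levels came from 15 to 54 counts over the short counted model, and the groups overlapped at both months, with changes of -0.01 ± 0.30 at 1 month and 0.72 ± 0.30 at 3 months.

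Pygl, the liver glycogen phosphorylase, is the member that breaks glycogen down. In HFCF livers at 1 month it had 251, 303 and 244 CPM, against 343, 388 and 381 CPM in chow livers, a change of -0.48 ± 0.13 with no overlap. At 3 months it had 448, 388 and 388 CPM in HFCF livers, against 330.4, 385 and 414 CPM in chow livers, with overlap and a change of 0.12 ± 0.12. The ratio of Gys2 to Pygl, taken between FPKM values, was 6.04, 2.68 and 5.59 in HFCF livers at 1 month against 1.16, 1.34 and 0.970 in chow livers. At 3 months it was 0.819, 0.937 and 1.19 in HFCF livers, against 1.28, 0.968 and 0.854 in chow livers. Synthase transcript thus was at least 2.68 times phosphorylase transcript in each HFCF liver at 1 month, while the ratio lay between 0.819 and 1.34 in the other 9 libraries.

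**Figure D3:**
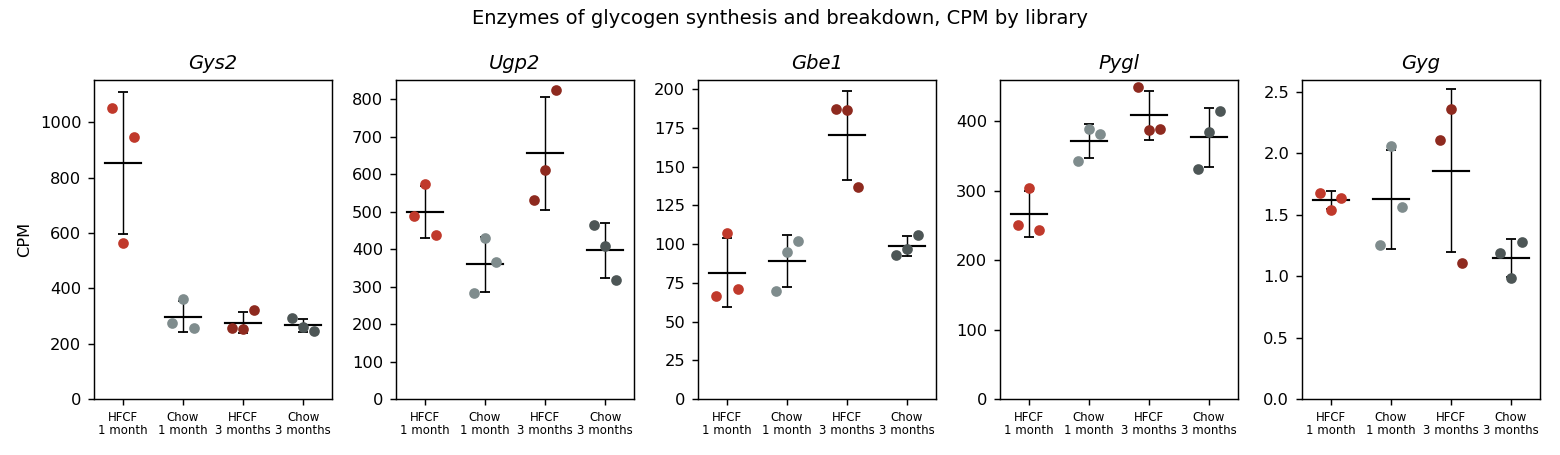
CPM of Gys2, Ugp2, Gbe1, Gyg and Pygl in each library, by diet and month, with a line at each group mean (n = 3 per group). Gys2 at 1 month lay at 564 CPM or more in HFCF livers and at 360.0 CPM or less in chow livers, Gbe1 at 3 months lay at 137 CPM or more in HFCF livers and at 106 CPM or less in chow livers, and Gyg stayed at 2.36 CPM or less.

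On the FPKM scale the order of the 8 transcripts differed between groups. In HFCF livers at 1 month Gys2 led at 308 FPKM, ahead of Ugp2 at 156 and Pygl at 66.6, with no overlap between neighbours. Ppp1r3g came next at 36.1 FPKM, not separated from Ppp1r3b at 16.4, which was not separated from Gbe1 at 14.6. Ppp1r3c at 6.39 and Gyg at 2.12 FPKM were last. In chow livers at 1 month Ugp2, Gys2 and Pygl, at 110.2, 105 and 91.1 FPKM, overlapped, Ppp1r3b followed at 46.0, Ppp1r3c at 21.9 overlapped Gbe1 at 15.7, and Ppp1r3g was last at 0.525 FPKM, below Gyg at 2.09.

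HFCF livers at 3 months had Ugp2 first at 233 FPKM, then Pygl at 118 and Gys2 at 114, which overlapped. Gbe1 at 35.2, Ppp1r3b at 22.4, Ppp1r3c at 15.3 and Ppp1r3g at 11.2 FPKM each overlapped the next. In chow livers at 3 months Ugp2, Gys2 and Pygl again overlapped, at 130.5, 101 and 98.8 FPKM, and Ppp1r3g at 1.27 FPKM overlapped Gyg at 1.58. Spread between replicates was widest for Ppp1r3g, whose log2 CPM had a pooled SD within groups of 1.13, and narrowest for Pygl, at 0.14.

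Replicates also differed in several of these genes at once. Of the HFCF livers at 1 month, replicate 2 had the highest Ppp1r3g, Ppp1r3b, Pygl, Gbe1 and Ugp2 and the lowest Gys2. Among chow livers at 3 months, replicate 1 had the highest Ppp1r3g and the lowest Ppp1r3b and Ppp1r3c, and it had 31.4 CPM of Irs2, an adaptor of the insulin receptor, against 15.9 and 20.5 CPM in replicates 2 and 3. What set these replicates apart was not tested.

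The diet comparison at 1 month asked how the shorter feeding differed from chow. Ppp1r3g and Gys2, 2 of the 8 genes, passed the threshold of edgeR's quasi-likelihood test, both higher in HFCF livers, against 2.04% of all genes tested in either direction and 1.04% higher. The groups did not overlap for 6 of 8 genes, against 20.6% of all genes. Ppp1r3g, Gys2 and Ugp2 were the 3 higher in HFCF livers, against 10.1% of all genes, and Ppp1r3b, Ppp1r3c and Pygl the 3 lower, against 10.5%. Since the genes were chosen with this comparison in view, nothing is read from these shares or from the calls of the 8 genes. The median change of the 8 genes was -0.07, against -0.0046 over all genes tested. The call of Ppp1r3g was lost without chow replicate 1 or chow replicate 3, each of which left 1 called gene, Gys2. Without HFCF replicate 2 there were 4, with Ppp1r3b and Pygl added, and without replicate 1 of chow at 3 months there were 3, with Ppp1r3b added.

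At 3 months 3 of the 8 genes passed, Ppp1r3g, Gbe1 and Ugp2, all higher in HFCF livers, against 19% of all genes tested in either direction and 11.5% higher. The same 3 genes had groups that did not overlap, against 36.8% of all genes in either direction and 19.3% higher. This comparison was in view when the genes were chosen, too, so nothing is read from these shares or from the calls of the 8 genes. The median change was 0.42, against -0.0042 over all genes. No member passed without HFCF replicate 2 or without chow replicate 2. Gbe1 alone passed without chow replicate 3 and Ugp2 alone without HFCF replicate 1. Without HFCF replicate 3 the 3 called genes were Ppp1r3g, Gbe1 and Gyg.

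**Figure D4:**
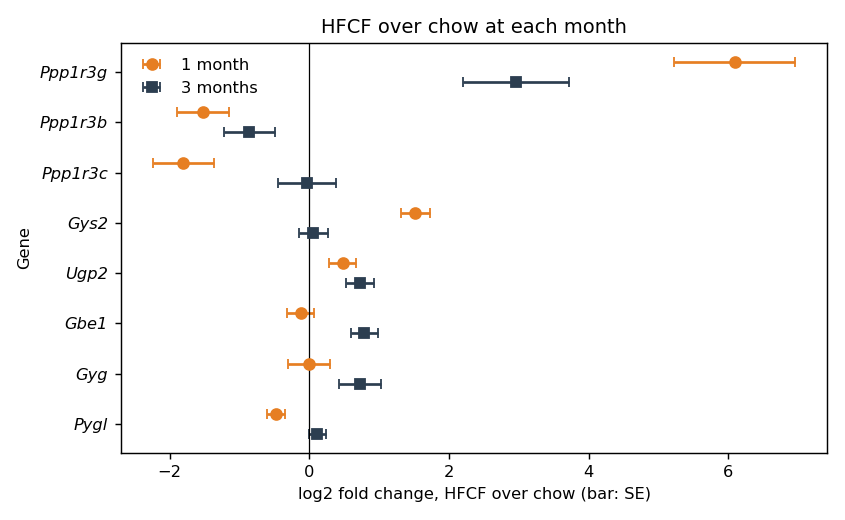
Log2 fold change of HFCF over chow for the 8 genes at 1 month and at 3 months, with bars of 1 SE. The largest change was that of Ppp1r3g at both months, 6.09 at 1 month and 2.96 at 3 months, while Gys2 was at 1.52 at 1 month and 0.06 at 3 months.

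The diet effect at 3 months minus that at 1 month was -3.14 ± 1.18 for Ppp1r3g, 1.77 ± 0.60 for Ppp1r3c and -1.46 ± 0.29 for Gys2. It was 0.91 ± 0.27 for Gbe1, 0.73 ± 0.42 for Gyg, 0.67 ± 0.51 for Ppp1r3b, 0.60 ± 0.18 for Pygl and 0.25 ± 0.28 for Ugp2. With edgeR's quasi-likelihood test 0 of the 8 genes passed, against 0.0407% of all genes tested, while 5 of the 8 had an unadjusted p under 0.05, against 15.6% of all genes. The DESeq2 Wald test called 2, Gys2 and Pygl, against 2.28% of all genes, and since the genes were chosen with both diet effects in view, nothing is read from these shares. Without replicate 3 of HFCF at 3 months, and likewise without replicate 2 of HFCF at 1 month, Gys2 and Gbe1 passed with edgeR. The calls depended on the libraries kept, and no conclusion on a member is drawn from them. The difference for Ppp1r3g was -2.20 without replicate 1 of chow at 3 months.

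Within the HFCF diet, livers at 3 months were set against livers at 1 month, a comparison that shares its libraries with the diet comparisons, so its p-values are not independent of the choice of genes. Gys2 was lower at 3 months, with 276 ± 39.5 CPM against 853 ± 256 CPM at 1 month (SD, n = 3 each), a change of -1.63 ± 0.21 or 0.324-fold (edgeR adjusted p = 0.000794). Pygl was higher, with 408 ± 34.9 CPM at 3 months against 266 ± 32.7 CPM at 1 month (0.62 ± 0.13, edgeR adjusted p = 0.00696). Gbe1 was higher too, with 170.2 ± 28.8 CPM at 3 months against 81.6 ± 22.5 CPM at 1 month, a 2.09-fold change (1.06 ± 0.19, edgeR adjusted p = 0.00516). All 3 kept their calls under each of 18 alternatives, with adjusted p of up to 0.00799 for Gys2, 0.0355 for Pygl and 0.0298 for Gbe1.

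These 3 of 8 genes that passed compare with 16.2% of all genes tested, the 2 higher genes with 9.25% and the 1 lower gene with 6.95%. The 3 HFCF libraries at 3 months lay apart from those at 1 month for 5 of the 8 genes, against 32.1% of all genes. Ppp1r3c, Pygl and Gbe1 were the 3 higher at 3 months, against 17.2% of all genes, and Ppp1r3g and Gys2 the 2 lower, against 14.9%. Ppp1r3g had a change of -1.90 ± 0.64 that did not pass (edgeR adjusted p = 0.0776), and Ppp1r3c had 1.07 ± 0.43 (edgeR adjusted p = 0.124). Ugp2, Ppp1r3b and Gyg had 0.39 ± 0.20, 0.24 ± 0.36 and 0.22 ± 0.29, with edgeR adjusted p of 0.186, 0.696 and 0.635. With each library left out in turn these values ran from 0.19 to 0.53 for Ugp2, lowest without replicate 3 of 3 months, from 0.065 to 0.66 for Ppp1r3b, lowest without replicate 1 and highest without replicate 2 of 1 month, and from 0.027 to 0.46 for Gyg, lowest without replicate 2 and highest without replicate 3 of 3 months. Ppp1r3c had 0.68 without replicate 3 of 3 months. Scaling by total counts put the median over all genes at 0.22, and Ppp1r3c and Ugp2 then passed as well, at 1.25 and 0.58.

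In chow livers 0 of the 8 genes differed between 3 months and 1 month with edgeR's quasi-likelihood test, against 0.00679% of all genes tested. No member had an unadjusted p under 0.05, against 8.08% of all genes, the DESeq2 Wald test called 0, against 0.462% of all genes, and the 3-month and 1-month libraries overlapped for all 8 genes, while 15.5% of all genes did not overlap. Adjusted p-values of the edgeR test were 0.719 to 0.984. Ppp1r3g had the largest change, 1.23 ± 1.01, which was 0.29 without chow replicate 1 of 3 months. Ppp1r3c had -0.70 ± 0.42, Gyg -0.50 ± 0.31 and Ppp1r3b -0.42 ± 0.36.

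**Figure D5:**
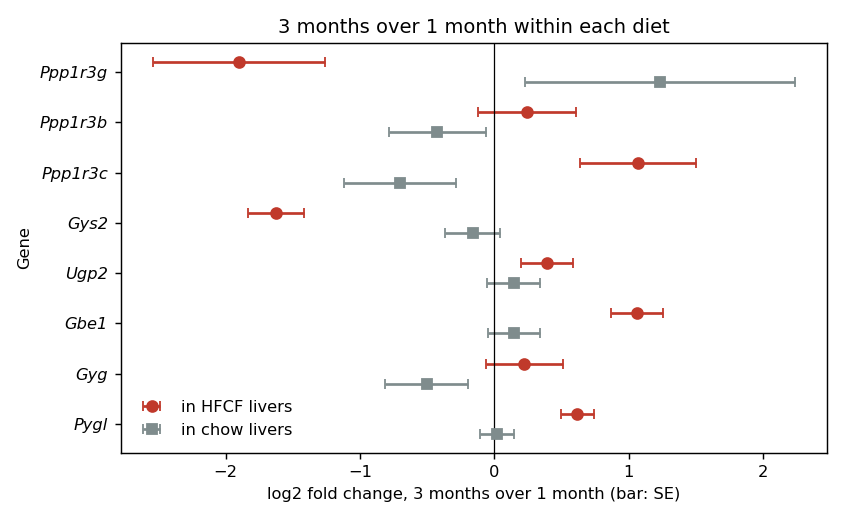
Log2 fold change of 3 months over 1 month for the 8 genes, within HFCF livers and within chow livers, with bars of 1 SE. In HFCF livers Gys2 was at -1.63, Gbe1 at 1.06 and Pygl at 0.62, the 3 that passed, and in chow livers no gene passed.

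Other genes of the pathway were taken from lists that were chosen with earlier results of these data known. Of all genes tested, 2.04% passed for diet at 1 month, 19% for diet at 3 months and 16.2% over time in HFCF livers. The counts of each list stand beside these shares, and no result on a list as a whole is read from them. Of the catalytic, inhibitor and other targeting subunits of protein phosphatase 1, 8 of 10 were tested. With edgeR none passed for diet at 1 month or at 3 months, where 1 and 0 had an unadjusted p under 0.05 and the DESeq2 Wald test called 0. Over time in HFCF livers the catalytic subunit gene Ppp1cc fell (-0.58 ± 0.16, edgeR adjusted p = 0.0238), with 2.95, 3.23 and 3.59 CPM at 3 months against 4.58, 5.21 and 4.78 CPM at 1 month, and it lost its call in 5 of 18 alternatives. Summed CPM of these genes ran from 290 to 317 in HFCF livers at 3 months and from 273 to 294 at 1 month.

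Among 12 tested genes of glycogen turnover other than the 8, none passed for diet at 1 month with edgeR, where 1 had an unadjusted p under 0.05 and the DESeq2 Wald test called 0. At 3 months 1 was higher and 2 were lower in HFCF livers, with a list median of 0.07 against -0.0042 over all genes. Phkg2, the catalytic subunit of phosphorylase kinase, fell to 16.4, 16.5 and 17.4 CPM in HFCF livers, against 27.5, 25.0 and 27.1 CPM in chow livers (-0.66 ± 0.08, edgeR adjusted p = 0.000435). It was the member of this list with the clearest separation, and it overlaps the opposite-strand gene Ccdc189, so its counts are less certain. Pygb, the brain form of phosphorylase, was higher (0.74 ± 0.21, edgeR adjusted p = 0.0263) and the lysosomal glucosidase gene Gaa lower (-0.42 ± 0.14, edgeR adjusted p = 0.0451), and these lost their calls in 4 and 9 of 18 alternatives.

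Over time in HFCF livers 3 of these 12 genes rose, against 9.25% of all genes, and 2 fell, against 6.95%. Among those that rose, Epm2a, the glycogen phosphatase laforin, rose by 0.44 ± 0.13 (edgeR adjusted p = 0.0399) and lost its call in 8 of 18 alternatives. Phkg2 had -0.46 ± 0.08 and Gaa -0.44 ± 0.14, with edgeR adjusted p of 0.00425 and 0.0426. The list median was -0.01, against 0.02 over all genes.

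The list of 9 genes that supply or remove glucose phosphate had 0 past the threshold for diet at 1 month with edgeR, where 2 had an unadjusted p under 0.05 and the DESeq2 Wald test called 1. At 3 months, where 19% of all genes passed in either direction, 1 of the 9 was higher and 1 was lower in HFCF livers. The lower one, Slc37a4, the glucose-6-phosphate transporter of the endoplasmic reticulum, had 140.3, 153 and 161 CPM in HFCF livers against 348, 436 and 375 CPM in chow livers (-1.35 ± 0.14, edgeR adjusted p = 0.000179).

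Over time in HFCF livers 2 of the 9 rose, against 9.25% of all genes, and 2 fell, against 6.95%. Gckr was among those that rose (0.54 ± 0.14, edgeR adjusted p = 0.0187). Slc37a4 fell (-1.28 ± 0.14, edgeR adjusted p = 0.000589), as did G6pc, the glucose-6-phosphatase (-0.98 ± 0.30, edgeR adjusted p = 0.0486). G6pc lost its call in 14 of 18 alternatives and Gckr in 3. The list medians were 0.17 for diet at 3 months and -0.01 for time in HFCF livers.

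Of 20 genes of hormone and kinase signalling to glycogen, Irs2 alone passed for diet at 1 month, where 2.04% of all genes passed. It had 33.5, 60.7 and 37.7 CPM in HFCF livers, against 12.9, 15.0 and 16.2 CPM in chow livers (1.58 ± 0.26, edgeR adjusted p = 0.0171), with a call lost in 3 of 18 alternatives. At 3 months, where 19% of all genes passed in either direction, 3 genes were lower in HFCF livers and none was higher. They were Insr, the insulin receptor (-0.48 ± 0.12), Prkag2, a subunit of AMP-activated kinase (-0.44 ± 0.12), and Prkar1a, a regulatory subunit of protein kinase A (-0.26 ± 0.09), with edgeR adjusted p of 0.0148, 0.0232 and 0.0496. Prkag2 overlaps an antisense transcript, and these 3 genes lost their calls in 3, 4 and 12 of 18 alternatives.

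Over time in HFCF livers 4 of the 20 fell, against 6.95% of all genes, and none rose, against 9.25%. Those that fell were Prkag2 (-0.62 ± 0.12), Insr (-0.44 ± 0.12), Gcgr, the glucagon receptor (-0.33 ± 0.10), and Irs2 (-0.85 ± 0.26). Their edgeR adjusted p-values were 0.00615, 0.026, 0.0394 and 0.0451. Prkag2 kept its call in each of 18 alternatives, while Insr, Gcgr and Irs2 lost theirs in 5, 9 and 12. The list medians were -0.05 for diet at 1 month, -0.11 for diet at 3 months and 0.00 for time in HFCF livers.

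Transcripts that respond to fasting and to the time of day were followed because glycogen genes respond to both. Of 12 fasting-responsive genes, 1 was lower for diet at 1 month, against 1.01% of all genes. It was the cell cycle inhibitor Cdkn1a (-4.21 ± 0.78, edgeR adjusted p = 0.0331, lost in 8 of 18 alternatives). At 3 months, where 19% of all genes passed in either direction, 4 of the 12 were lower in HFCF livers. These were Tat (-1.73 ± 0.30), Pck1 (-1.08 ± 0.22), Lpin1 (-2.36 ± 0.44) and Angptl4 (-0.87 ± 0.21), with edgeR adjusted p of 0.00243, 0.00434, 0.00608 and 0.0158. Angptl4 lost its call in 4 of 18 alternatives. Over time in HFCF livers 6 of the 12 were lower, against 6.95% of all genes, and none passed as higher. Changes in the list ran from -3.06 to 1.65 over time in HFCF livers, and from -2.36 to 1.08 for diet at 3 months. The summed CPM of all 12 genes was 7209 to 9200 in HFCF livers and 13880 to 14510 in chow livers at 3 months, and 13890 to 20380 in HFCF livers and 15930 to 18580 in chow livers at 1 month.

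Of 17 tested clock genes, 3 passed for diet at 1 month, against 2.04% of all genes. Arntl, the activator BMAL1, had 2.52, 3.47 and 4.03 CPM in HFCF livers against 25.1, 10.9 and 14.7 CPM in chow livers (-2.35 ± 0.33, edgeR adjusted p = 0.00744). Its partner Clock was lower as well (-0.59 ± 0.09, edgeR adjusted p = 0.00616), and Nr1d2 was higher (0.67 ± 0.14, edgeR adjusted p = 0.0311, lost in 7 of 18 alternatives). At 3 months Arntl had 4.44, 4.02 and 3.59 CPM in HFCF livers against 8.30, 15.2 and 15.1 CPM in chow livers (-1.66 ± 0.32, edgeR adjusted p = 0.00537), and Clock had -0.52 ± 0.09 (edgeR adjusted p = 0.00179). The lowest of these chow values of Arntl was that of replicate 1, the chow library with the highest Ppp1r3g. In chow livers at 1 month the highest Arntl came with the lowest Ppp1r3g. In HFCF livers the order went the other way, as the library with the lowest Arntl also had the lowest Ppp1r3g at both months. No link between the 2 genes is read from these libraries. The hour of collection and the feeding state are not given in the labels, and their part in the levels of the 8 genes was not tested.

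Markers of several cell types differed by diet at 3 months, a comparison in which 19% of all genes passed in either direction and 11.5% were higher. The summed level of 9 tested hepatocyte markers was 80550 to 101800 CPM in HFCF livers and 123200 to 134600 CPM in chow livers, and 5 of the 9 were lower. That of 9 macrophage markers was 475 to 697 CPM in HFCF livers and 268 to 377 CPM in chow livers, with 6 higher, and that of 10 stellate cell markers was 688 to 1233 CPM in HFCF livers and 491 to 662 CPM in chow livers, with 4 higher. Of 5 cholangiocyte markers 1 was higher, Spp1, with a change of 2.35, while the lowest change in that list was -0.66. Summed levels of the 5 were 60.7 to 222 CPM in HFCF livers and 31.3 to 44.0 CPM in chow livers. None of 6 endothelial markers passed with edgeR, 1 had an unadjusted p under 0.05, and the DESeq2 Wald test called 0.

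At 1 month the summed hepatocyte markers were 115400 to 131400 CPM in HFCF livers and 140800 to 160000 CPM in chow livers, and the macrophage markers 284 to 635 CPM in HFCF livers and 284 to 306 CPM in chow livers. None of these markers passed with edgeR. An unadjusted p under 0.05 was reached by 2 hepatocyte and 4 macrophage markers, and the DESeq2 Wald test called 1 and 2. Of 7 skeletal muscle markers Ttn alone was tested, at 3.07 to 4.07 CPM in HFCF livers and 3.29 to 3.68 CPM in chow livers at 1 month. At 3 months Ttn was higher, with 3.40 to 4.68 CPM in HFCF livers and 2.29 to 2.59 CPM in chow livers (0.76 ± 0.19, edgeR adjusted p = 0.0132), and it lost its call in 2 of 18 alternatives. None of the markers listed in the count table was at 0 throughout a group. Of the 7 skeletal muscle markers 1 was listed there, so nothing is known of the levels of the others. In bulk liver, fewer cells of a type and less RNA per cell cannot be told apart, and the part of tissue makeup in the levels of the 8 genes was not tested.

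Genes whose pattern was most like that of Ppp1r3g over the 12 libraries, by Pearson r of log2 CPM among genes with a mean of at least 5 CPM, were Slc23a2 (r = 0.957), Lipe (0.947), Ak4 (0.944), Angel2 (0.929) and Dclre1a (0.928). Slc23a2, a vitamin C transporter, had 46.2 ± 3.52 CPM in HFCF livers and 19.7 ± 3.55 CPM in chow livers at 1 month, and 41.5 ± 3.46 CPM in HFCF livers and 24.7 ± 2.37 CPM in chow livers at 3 months (SD, n = 3 each). Its range was far narrower than that of Ppp1r3g. The genes most like Gys2 were Azin1 (r = 0.95), Mpp5 (0.936), Whamm (0.925), Fam169b (0.916) and Tom1l2 (0.897). Azin1, which binds the antizyme of polyamine synthesis, had 177 ± 16.2 CPM in HFCF livers and 136 ± 8.92 CPM in chow livers at 1 month, and 123 ± 9.71 CPM in HFCF livers and 126 ± 7.53 CPM in chow livers at 3 months.

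The 12 libraries fall into 4 groups that share diet and month, so likeness over libraries cannot be told apart from likeness of group means. By Spearman's rank correlation 3 of the 5 genes named for Ppp1r3g and 0 of the 5 for Gys2 were again among the closest 5. Lipe, Fam169b and Tom1l2 each overlap an opposite-strand gene in the table, and their counts are less certain.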

How the data were processed

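Frozen liver RNA was sequenced from stranded libraries made after removal of ribosomal RNA, per the labels. The authors deposited raw read counts per gene on genome build mm10, per the submitters' processing notes. For the aligner, the counter and the strand that was counted, nothing is given in the sources used here. FPKM values in the deposited table are the authors' own and were used to compare levels between genes. The log2 ratios in the authors' deposited table run first-named over second-named group, and the authors' deposited score columns were not used.

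The counts were fitted with edgeR 4.0.16 (limma 3.58.1, R 4.3.3), and plots were made with matplotlib 3.10.9, pandas 2.3.3 and Python 3.11.15. The filterByExpr function left 14725 of 16035 genes, and 1 empty line was left out. Libraries of 13733485 to 20277572 counts were scaled by TMM, and the means of the 4 groups were estimated in 1 robust quasi-likelihood fit that gave all comparisons, with a common biological coefficient of variation of 0.153. Dividing a change by the square root of its F statistic gave the SE. The procedure was tested on simulated data. Replicate numbers were not treated as pairs in the main fit. No libraries within a group were duplicates, as their counts differed by a chi-square of 13.0 to 65.4 per gene.

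The 8 genes, the other lists and the tests were chosen with earlier results of these data known. Named genes are the 8, up to 4 called genes of each list and comparison with the smallest p, and the 5 most like Ppp1r3g and Gys2. Some genes that this rule names are left out of the text. Of 18 alternatives, 12 left out 1 library each. The others were DESeq2 1.42.0 size factors, total counts alone, no filter, the DESeq2 Wald test, a replicate block and leaving out both libraries that stood apart, the last chosen after the data were seen. Ppp1r3a and 11 other genes of the lists, and protein sequences, were not analysed here.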

Additional observations from a re-analysis of the deposited data

How the results depend on the processing

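Calls of single genes rested on groups of 3, and values of Ppp1r3g in chow and of Gyg on few counts, 6 to 111 and 15 to 54. Diet calls of the 8 genes are a description, as these genes were chosen with the diet effects in view. Of the 8 genes, 2 passed for diet at 1 month, with 5 under the DESeq2 Wald test, 1 without both libraries that stood apart and 1 to 4 when each library was left out. At 3 months 3 passed, with 0 to 4 across libraries left out. For the difference of diet effects 0 passed, with 2 under the Wald test (Gys2 and Pygl), 2 without both libraries that stood apart and 0 to 2 across libraries left out. For time in HFCF livers 3 passed, and 5 with total counts alone. Over all genes, the diet comparison at 1 month called 301, with 622 under the Wald test, 149 without both libraries that stood apart and 65 to 396 across libraries left out. At 3 months it called 2802, with 1255 to 3631 across libraries left out. The difference called 6, with 0 under total counts alone, 336 under the Wald test, 635 without both libraries that stood apart and 0 to 878 across libraries left out, while 2296 genes had an unadjusted p under 0.05. Time in HFCF livers called 2385, with 3907 under total counts alone, 3808 without both libraries that stood apart and 732 to 3562 across libraries left out. Time in chow livers called 1, with 2 under DESeq2 size factors, total counts alone, no filter or without both libraries that stood apart, 68 under the Wald test and 1 to 8 across libraries left out. With total counts alone the share of calls that were higher was 81.4% for diet at 3 months, against 60.6%, and 87.6% for time in HFCF livers, against 57.1%, as the medians of all genes moved to 0.13 and 0.22. Under that scaling Gyg at 1 month stood at 0.02 and Ppp1r3c at 3 months at 0.08, each of the other sign. Changes near 0 over time in chow livers reversed for Pygl, at -0.032 without both libraries that stood apart and -0.052 to 0.11 across libraries left out, and for Ugp2, at -0.0025 and -0.0026 to 0.29. The cause of these shifts was not tested. The same replicate numbers in 2 groups correlated by over 0.1 in 5 of 18 pairs, from -0.17 to 0.19, and 5 of 12 libraries correlated best with their own number. No clear pairing by number was seen, but with groups of 3 this check cannot exclude one. With a replicate block the genes called were 212 for diet at 1 month, 2718 at 3 months, 51 for the difference, 2259 for time in HFCF livers and 1 for time in chow livers, and of the 8 genes 2, 2, 0, 3 and 0.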
